A study of Arabidopsis thaliana with 30 samples.

Results

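The pericycle sort at high phosphate (HPi) comprised 3 RNA-seq libraries of 30 in the series. They were made from root cells of Arabidopsis line J0661 recovered by fluorescence-activated cell sorting (FACS). The members were chosen by their labels alone: the 3 HPi libraries of the cell type called pericycle were set against the mean of the other 4 HPi cell types, which held 3 libraries each and 12 in all. The question was which genes, over the whole genome, marked this sort.

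In the series as a whole, 5 fluorescent marker lines were grown on high phosphate or on low phosphate (LPi), giving 10 groups of 3 libraries. The pericycle group came from J0661, and the groups it was set against came from WER::GFP (epidermis), J0571 (cortex), SHR::GFP (stele) and J3411 (lateral root cap). All 5 lines were labelled Wild Type, and each group is therefore one marker line. The WER and SHR promoters drive the reporter in their lines, and J lines are enhancer traps, in which the insertion site sets where GFP is made. Seedlings had been kept for 6 days at 22 °C on half-strength MS medium in the D-Root device, which shades the roots. HPi was the control medium. The labels describe LPi in one place as 5 µM phosphate and in another as medium without it. Cell type and marker line changed together in every comparison, so their contributions cannot be told apart. Whether replicates were grown apart is not stated, and the p-values cover only the spread between libraries, which may be technical.

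The pericycle is the outermost layer of the root stele and lies between the endodermis and the vascular strands. Lateral roots arise from founder cells in the part of this layer that faces the xylem, in a programme set by auxin, and the layer also exports ions to the xylem sap. The part that faces the phloem exchanges sugars and amino acids with it.

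The pericycle HPi libraries held 26123226 to 122076663 reads in genes, against 1097568 to 62197932 in the other 12 HPi libraries. Between 21791 and 28832 genes had a read in a pericycle library. Across genes, which are not independent replicates, log2 CPM of pericycle HPi libraries correlated at 0.900 to 0.961 among themselves, at 0.800 to 0.913 with stele HPi libraries, at 0.779 to 0.886 with cortex ones, at 0.6995 to 0.768 with epidermis ones and at 0.619 to 0.754 with those of the lateral root cap. Several other libraries stood apart. The sort labelled cortex carried the endodermis markers described below, stele HPi replicate 1 held the fewest reads of the HPi libraries (1097568), and epidermis HPi replicate 3 and LPi replicate 3 differed by a biological coefficient of variation of 0.0444, against 0.263 for the next closest pair. In bulk libraries, fewer cells of a type and less RNA per cell cannot be told apart.

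Levels are given as CPM, the reads of a gene per 1000000 reads in genes after TMM scaling. Differences are log2 values of pericycle HPi minus the mean of the 4 other HPi groups, from edgeR's quasi-likelihood test with Benjamini-Hochberg adjustment over 24866 genes, and a gene was called at an adjusted p under 0.05.

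Of the 24866 genes, 5061 (20.4%) were called, 3278 higher (13.2%) and 1783 lower (7.17%) in the pericycle sort. The median difference over all genes was 0.18. Scaling by relative log expression (RLE) moved that median to -0.07 and the calls to 2311 higher and 2470 lower, and DESeq2 gave 2521 higher and 3601 lower. Higher calls had a median log2 difference of 1.86 and lower calls of -2.37, and 261 genes were higher by 4 or more against 364 lower by 4 or more. The 3 pericycle libraries lay above all 12 others for 1275 genes (5.13%) and below all 12 for 443 (1.78%). The number of calls was 2873 without pericycle replicate 2 and 3029 without pericycle replicate 3.

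Set against each sort by itself, the pericycle differed least from the stele. There 443 genes (1.78%) were higher and 651 (2.62%) lower in the pericycle, and against the cortex 1028 (4.13%) were higher and 1276 (5.13%) lower. Many more were called against the epidermis, 3155 higher (12.7%) and 2862 lower (11.5%), and against the lateral root cap, 3942 higher (15.9%) and 2568 lower (10.3%). Of the 3278 genes higher than the mean of the others, 2628 were also higher than the lateral root cap and 2353 higher than the epidermis, while 271 were higher than the stele and 12 lower than it. Against all 4 sorts taken one by one, 54 genes (0.217%) were higher and 117 (0.471%) lower in each comparison.

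GATA23, whose product specifies lateral root founder cells, was the first marker named for the sort. It stood at 9.497, 12.96 and 12.6 CPM in the pericycle libraries, against 0 to 2.26 CPM (median 0.563) in the other 12. The pericycle libraries did not overlap the rest, and GATA23 was higher by 4.26 (SE 0.69, adjusted p = 6.04e-05). Taken sort by sort it was called over the epidermis and the lateral root cap, while the differences from the stele (3.36) and the cortex (3.22) did not reach the threshold. PHO1, which exports phosphate to the xylem, was the second marker. It stood at 5.89, 23.2 and 19.9 CPM in the pericycle libraries, against 0.0433 to 26.3 CPM (median 2.45) in the other 12. Here the groups overlapped, since stele libraries held 10.8 to 26.3 CPM. PHO1 was called higher by 2.31 (SE 0.67, adjusted p = 0.0149). The call was lost without pericycle replicate 2 (log2 difference 1.97) or replicate 3 (2.19).

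A list of 12 pericycle genes, chosen like all lists here with earlier results of these data known, had 5 members called higher (41.7%, against 13.2% of all genes) and none lower. Its median difference was 2.07, against 0.18 over all genes, and it was positive against each sort, from 1.63 over the stele to 2.76 over the epidermis. LBD16, a transcription factor gene that acts in the first divisions of founder cells, stood at 159, 199 and 219 CPM in the pericycle libraries, against 1.01 to 75.1 CPM (median 25.1) in the other 12. BOR1 encodes an exporter that loads boron into the xylem and stood at 139.7, 288 and 303 CPM in the pericycle libraries, against 10.01 to 75.4 CPM (median 28.04) in the other 12. Neither gene overlapped another sort, with log2 differences of 3.61 (SE 0.35, adjusted p = 4.23e-08) and 2.94 (SE 0.36, adjusted p = 1.52e-06). SULTR2;1, a sulfate transporter gene of vascular tissue, was low in CPM but also set apart, at 15.2, 11.8 and 13.5 CPM in the pericycle libraries, against 0 to 1.87 CPM (median 0.334) in the other 12. The other 7 members were not called. Among these, transcripts of the potassium channel gene SKOR (0, 0.452 and 0.0708 CPM), of FRD3, a citrate exporter gene (0, 0.273 and 0.319 CPM), and of AHP6, an inhibitor of cytokinin signalling (0.897, 0.341 and 0.0354 CPM), were close to 0 in the pericycle libraries. XPP, a gene of the xylem pole pericycle, stood at 1.204, 3.49 and 2.66 CPM there, against 6.05 to 17.6 CPM in the stele. Summed over the list, pericycle libraries held 363 to 613 CPM, above the 86.96 to 210.3 CPM of the other 12. As the list was chosen with earlier results known, its 5 calls of 12 describe this sort and are no check of its label.

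**Figure D1:**
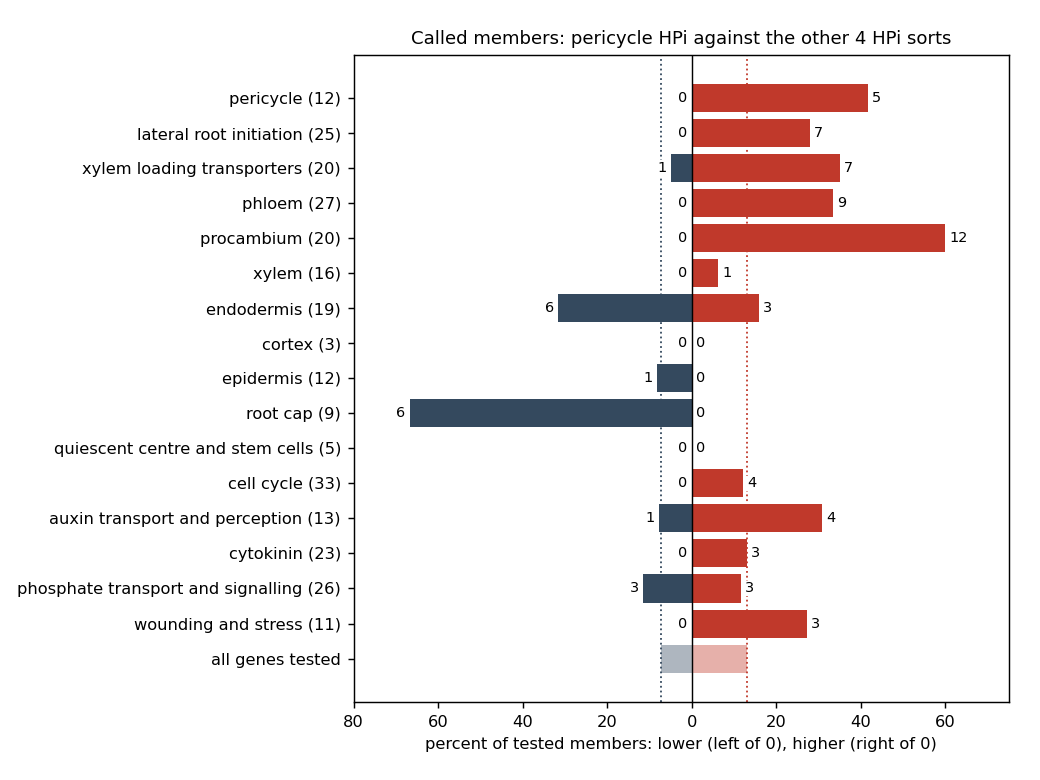
Share of the tested members of each of 16 gene lists called higher (right of 0) or lower (left of 0) in pericycle HPi against the mean of the other 4 HPi sorts, in percent, with the number of calls at the bar end and the members tested in parentheses. Dotted lines mark the shares over all genes tested (13.2% higher, 7.17% lower). The procambium bar reaches 60.0% higher and the root cap bar 66.7% lower.

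Of 25 genes of lateral root initiation, 7 were higher and none lower (28%, against 13.2% of all genes), with a median of 0.75. Besides GATA23 and LBD16, LRP1, a gene of root primordia, stood at 45.8, 61.2 and 61.4 CPM in the pericycle libraries, against 0.0567 to 41.4 CPM (median 5.99) in the other 12 and was higher by 3.07 (SE 0.67, adjusted p = 0.00219). The auxin response factor gene ARF19, which acts upstream of the LBD genes, stood at 78.8, 86.2 and 99.5 CPM in the pericycle libraries, against 6.11 to 42.6 CPM (median 22.7) in the other 12. Its libraries did not overlap the rest, and its call (log2 difference 1.92) was lost without pericycle replicate 3 (1.86). ARF5 (1.1), ALF4 (0.97), whose product lets pericycle cells divide, and IAA18 (1.39), an auxin-dependent repressor, were also called, IAA18 not without pericycle replicate 2 (1.23). Genes that act later in the primordium were hardly detected. LBD18 held 0.0219, 0.375 and 0.638 CPM in the pericycle, LBD29 1.12, 0.358 and 0.425 CPM and PUCHI 1.58, 0.477 and 0.142 CPM, and none of them was called. The partner of ARF19, ARF7, stood at 60.7, 86.5 and 75.4 CPM in the pericycle libraries, against 63.9 to 121 CPM (median 82.4) in the other 12, with overlapping groups and a difference of -0.17 (SE 0.24). Without pericycle replicate 2 or replicate 3 the list had 4 calls. Summed, the list came to 2037 to 2396 CPM in the pericycle, against 2462 to 3582 CPM in the cortex sort and 1126 to 1304 CPM in the stele. Against the cortex sort 3 members were higher and none lower, where 4.13% of all genes were higher and 5.13% lower. IAA18 stood at 48.8, 81.9 and 70.3 CPM in the pericycle, against 54.8 to 96.8 CPM in the cortex sort.

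Transporters that move ions and amino acids between the stele and the xylem split into a strongly higher set and a set near 0. Of 20, 7 were higher and 1 lower (35% and 5%, against 13.2% and 7.17% of all genes). The median was -0.32, which was 0.30 with at least 5 CPM in 3 libraries and 0.04 without pericycle replicate 1. HMA4, a pump that exports zinc towards the xylem, stood at 359.9, 498 and 502 CPM in the pericycle libraries, against 3.72 to 120.1 CPM (median 15.7) in the other 12. It was higher than every other sort, including the stele (2.23), and its overall difference was 4.45 (SE 0.35, adjusted p = 2.58e-09). NPF7.2, a carrier that retrieves nitrate from xylem sap, stood at 191, 406 and 436 CPM in the pericycle libraries, against 5.46 to 126 CPM (median 48.3) in the other 12 and was higher by 3.28. UMAMIT18, an amino acid exporter gene, reached 188, 363 and 350.0 CPM but overlapped the stele (216 to 342 CPM), from which it differed by 0.03. The member called lower was SLAH3, an anion channel gene, at 2.41, 14.4 and 8.43 CPM in the pericycle libraries, against 4.498 to 270.3 CPM (median 142) in the other 12. Some exporter genes that act in anion loading of the xylem were low in CPM, though not called lower than the mean of the 4 sorts. Among them were NPF7.3, a nitrate transporter gene known from pericycle cells next to the xylem, NPF2.3, also of nitrate, and NPF2.4, of chloride. NPF7.3 held 2.101, 1.304 and 2.59 CPM, NPF2.3 0.0219, 0.937 and 2.02 CPM and NPF2.4 0, 0.443 and 2.302 CPM in the pericycle.

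The amino acid permeases stood out among the genes with the largest differences, and their list of 8 was drawn up after those values had been seen, so its counts are a description. Permeases of this family import amino acids across the plasma membrane. AAP2, which acts along the phloem, stood at 139, 87.03 and 139 CPM in the pericycle libraries, against 0.0567 to 6.24 CPM (median 3.32) in the other 12. AAP3 stood at 90.2, 142 and 103 CPM in the pericycle libraries, against 0 to 11.7 CPM (median 0.788) in the other 12. In both cases every pericycle library exceeded the highest other library several-fold, and the log2 differences were 6.22 (SE 0.5, adjusted p = 3.23e-09) and 6.18 (SE 0.88, adjusted p = 3.39e-05). AAP4 (3.1), AAP5 (1.92) and AAP7 (3.52) were also called higher. AAP1 was not, with 54.4, 72.001 and 85.8 CPM in the pericycle libraries, against 7.69 to 352 CPM (median 62.1) in the other 12 and its highest values in the cortex (244 to 352 CPM).

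The largest differences of all, by the naming rule, included several genes without a known role in the root. AT1G12805, annotated as a nucleotide-binding protein, stood at 21.2, 84.3 and 88.7 CPM in the pericycle libraries, against 0 to 1.37 CPM (median 0.3104) in the other 12. It was higher by 7.44 (SE 0.93, adjusted p = 5.09e-06) and higher than each sort. TH8, an h-type thioredoxin gene, stood at 11.3, 18.3 and 26.4 CPM in the pericycle libraries, against 0 to 1.602 CPM (median 0) in the other 12, with no read in the cortex HPi libraries. Its fitted difference of 7.24 therefore depends on the prior count, and over a floor of 3 reads in all cortex libraries together it was at least 542-fold higher than in the cortex. LCR69, which encodes a small cysteine-rich protein, stood at 102, 158 and 191 CPM in the pericycle libraries, against 0 to 7.08 CPM (median 2.49) in the other 12 and was higher by 6.15. AT1G12020, an uncharacterised gene, stood at 139, 198 and 169 CPM in the pericycle libraries, against 0.334 to 16.2 CPM (median 2.59) in the other 12 and was higher by 5.85. AT1G19530 stood at 129.9, 303 and 279 CPM in the pericycle libraries, against 0.507 to 13.7 CPM (median 3.95) in the other 12 and was higher by 5.67. None of these 5 genes overlapped another library, which the naming rule required. BZIP9, a leucine zipper transcription factor gene, completed the 8 genes furthest above every other sort, at 83.9, 106 and 92.9 CPM in the pericycle libraries, against 0 to 8.09 CPM (median 3.02) in the other 12 (log2 difference 4.81, SE 0.46, adjusted p = 4.16e-08).

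Other genes among the 15 largest were shared in part with the stele. ASL15, a LOB-domain gene of the same family as LBD16, stood at 21.3, 34.3 and 45.2 CPM in the pericycle libraries, against 0 to 19.5 CPM (median 0.334) in the other 12. The high values outside the pericycle were those of the stele (17.6 to 19.5 CPM), from which it differed by 0.83. AT2G25790, a receptor-like kinase gene, was also nearest to the stele, with 119, 158 and 157 CPM in the pericycle libraries, against 13.4 to 73.1 CPM in the stele. AT3G43270, of the pectin methylesterase family, did not: it held 373, 343 and 369 CPM in the pericycle, against 0.826 to 1.54 CPM in the stele and 5.28 to 79.2 CPM in the cortex, and was higher than every other sort. AT5G12110 (6.55), AT4G29200 (5.6), AT4G32860 (5.4), CYP90D1 (5.36) and AT-HSFA7B (5.31) made up the remainder. AT5G12110, which encodes an elongation factor subunit, AAP3, ARF19, NPF7.2, BZIP9 and REV are among 22 of the 100 named genes that overlap another annotated gene, whose reads could be shared.

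**Figure D2:**
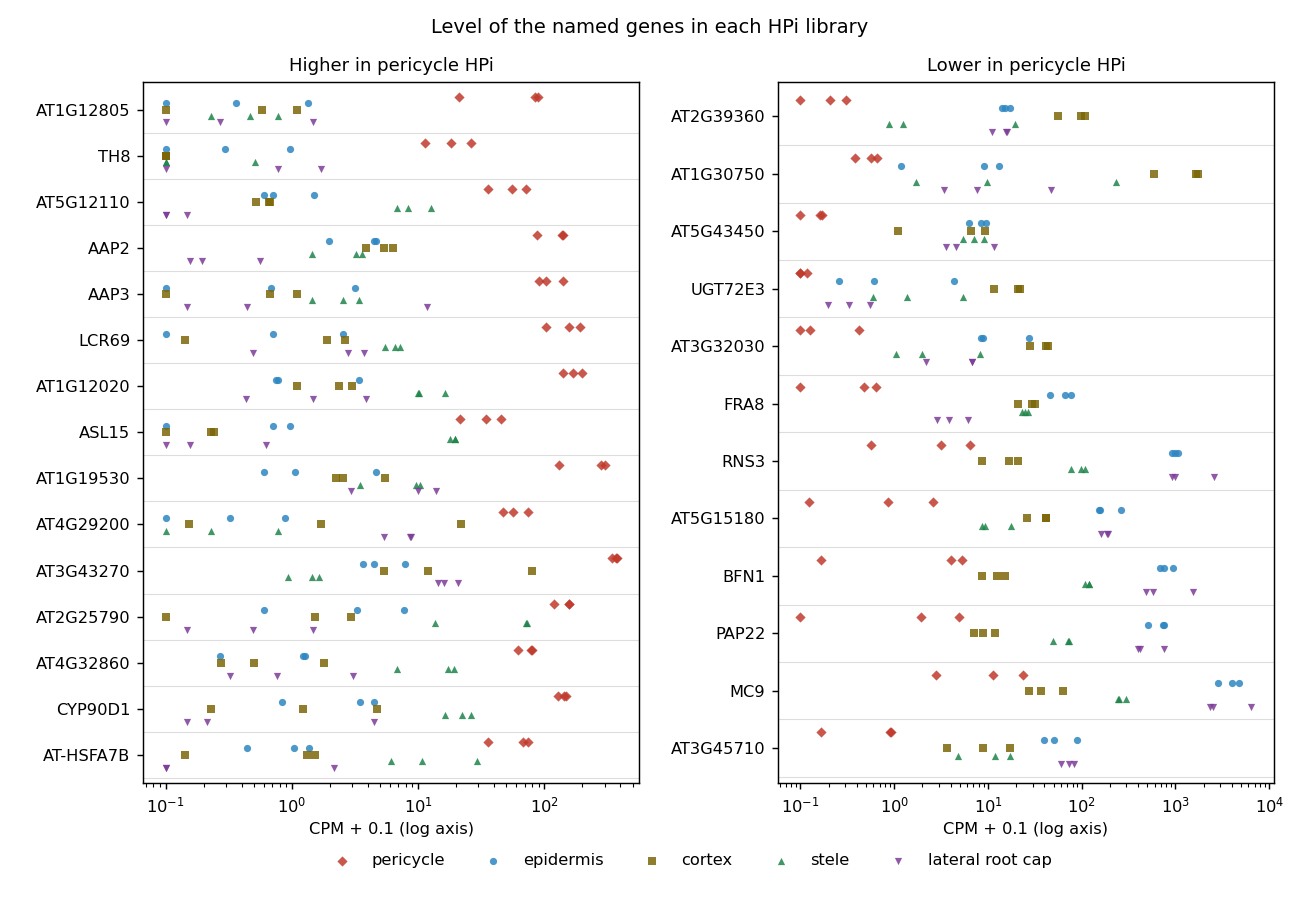
Level of the 15 genes with the largest positive difference (left) and the 12 with the largest negative difference (right), 1 point per HPi library, as CPM plus 0.1 on a log axis, with colour and marker shape giving the sort. The red diamonds of the pericycle lie apart from all other points in every row because only genes without overlap were eligible. The nearest other points on the left are often the green triangles of the stele, as for ASL15 (pericycle 21.3, 34.3 and 45.2 CPM, stele 17.6 to 19.5 CPM).

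Brassinosteroid genes were also grouped after CYP90D1 had been seen among the largest differences. CYP90D1 encodes a hydroxylase of brassinosteroid synthesis and stood at 129, 147 and 144 CPM in the pericycle libraries, against 0.0478 to 26.01 CPM (median 3.87) in the other 12 (log2 difference 5.36, SE 0.83, adjusted p = 8.84e-05). Of 11 genes for synthesis and receptors, 6 were higher and 1 lower (54.5% and 9.09%, against 13.2% and 7.17% of all genes). The higher calls fell to 3 under RLE scaling and without 1 of 6 single libraries (epidermis replicates 1 or 3, cortex replicates 1 or 3, pericycle replicates 2 or 3). CPD and DWF4, both of the same pathway, were higher by 4.13 and 2.33. The receptor genes went in opposite directions. BRL1, a receptor gene of vascular cells, stood at 7.42, 15.7 and 24.3 CPM in the pericycle libraries, against 0.113 to 5.39 CPM (median 1.83) in the other 12, with no overlap and a difference of 2.76 (adjusted p = 0.0312). BRI1, the main receptor gene, stood at 3.17, 6.34 and 7.62 CPM in the pericycle libraries, against 2.303 to 154 CPM (median 45.8) in the other 12 and was lower by -2.7 (adjusted p = 0.00541).

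Of 29 listed phloem genes, 27 passed the filter. Of these 9 were higher (33.3%, against 13.2% of all genes), none was lower and 18 were not called, with a median of 1.89. Against the stele 1 was higher and none lower, with a median of 1.23, where 1.78% of all genes were higher and 2.62% lower. SUC2, the sucrose carrier gene of companion cells, stood at 182, 318 and 264 CPM in the pericycle libraries, against 2.21 to 136 CPM (median 12.8) in the other 12. AHA3, the proton pump gene of the same cells, stood at 26.7, 37.9 and 34.96 CPM in the pericycle libraries, against 0.677 to 13.05 CPM (median 4.57) in the other 12. Neither overlapped another sort, and AHA3 was higher than each of the 4 (log2 difference 2.86, SE 0.43, adjusted p = 2.24e-05). OPS, a gene of early sieve element formation, was higher by 3.37, and SMXL3 and SMXL5, which act in phloem formation, by 4.25 and 3.97. SMXL5 varied within the pericycle, at 12.5, 4.23 and 1.28 CPM, and its call was lost without replicate 1 (2.89). APL, a regulator of phloem identity, held 10.9, 5.45 and 8.78 CPM in the pericycle and 0 to 0.695 CPM in the stele. Some genes of mature sieve elements were low in CPM: SEOR1 held 3.02, 1.24 and 1.84 CPM, SEOR2 0, 0.0341 and 0.815 CPM and CALS7 0.0875, 2.88 and 2.44 CPM in the pericycle libraries. These low levels do not set the sort apart, since no phloem gene was called lower than any single sort. The summed list came to 351 to 477 CPM in the pericycle, above the 158 to 219.9 CPM of the stele and the 19.96 to 219.9 CPM over all 12 others. The part of phloem cells in the other differences of this sort was not tested.

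Procambium genes had the highest share of higher calls of the 16 lists, 12 of 20 tested (60%, against 13.2% of all genes), and no lower call, with a median of 2.17. Against the stele, however, 1 was higher and 1 lower, where 1.78% of all genes were higher and 2.62% lower, and the median was -0.38. REV, a class III homeodomain gene that patterns vascular tissue, stood at 85.01, 99.1 and 84.9 CPM in the pericycle libraries, against 1.18 to 75.99 CPM (median 15.1) in the other 12, just above the highest stele library. HB8, of the same class, stood at 60.9, 79.3 and 68.1 CPM in the pericycle libraries, against 0.0175 to 133 CPM (median 1.54) in the other 12, inside the stele range. The bHLH genes TMO5 and T5L1, which promote divisions of vascular cells, were higher by 3.32 and 2.63 than the mean of the others, yet T5L1 was lower than the stele by -2.9 (pericycle 12.2, 37.3 and 21.8 CPM, stele 138 to 211 CPM). The cytokinin activation genes LOG3 and LOG4 were higher by 3.23 and 3.84 than the mean of the others, but both overlapped the stele. LOG3 held 8.36, 5.31 and 3.08 CPM in the pericycle, against 6.72 to 19.6 CPM in the stele. LOG4 held 9.52, 12.3 and 12.6 CPM in the pericycle, against 10.8 to 13.4 CPM in the stele. PXY, the receptor gene of the cambium, was not called, at 6.67, 3.74 and 5.95 CPM in the pericycle libraries, against 0 to 18.5 CPM (median 2.099) in the other 12.

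Xylem differentiation genes separated the pericycle from the stele. Of 16, 9 were lower than the stele, against 2.62% of all genes, and the median difference from it was -5.32. Against the mean of the 4 sorts 1 was higher (6.25%, against 13.2% of all genes), none was lower and the median was -1.07. LAC4, a laccase gene of lignified walls, stood at 3.26, 3.502 and 2.94 CPM in the pericycle, against 278 to 517 CPM in the stele. CESA7, a cellulose synthase gene of secondary walls, stood at 2.43, 21.9 and 13.1 CPM in the pericycle, against 366 to 712 CPM in the stele. The protease gene XCP1 held 2.89, 19.2 and 12.2 CPM in the pericycle, against 643 to 1145 CPM in the stele. Summed xylem transcripts came to 32.9 to 132 CPM in the pericycle and 3393 to 5977 CPM in the stele, with 15.01 to 123 CPM in the cortex. VND3, an early xylem regulator gene, was the member called higher (3.55), at 4.75, 9.99 and 7.12 CPM in the pericycle and 17.5 to 42.3 CPM in the stele.

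**Figure D3:**
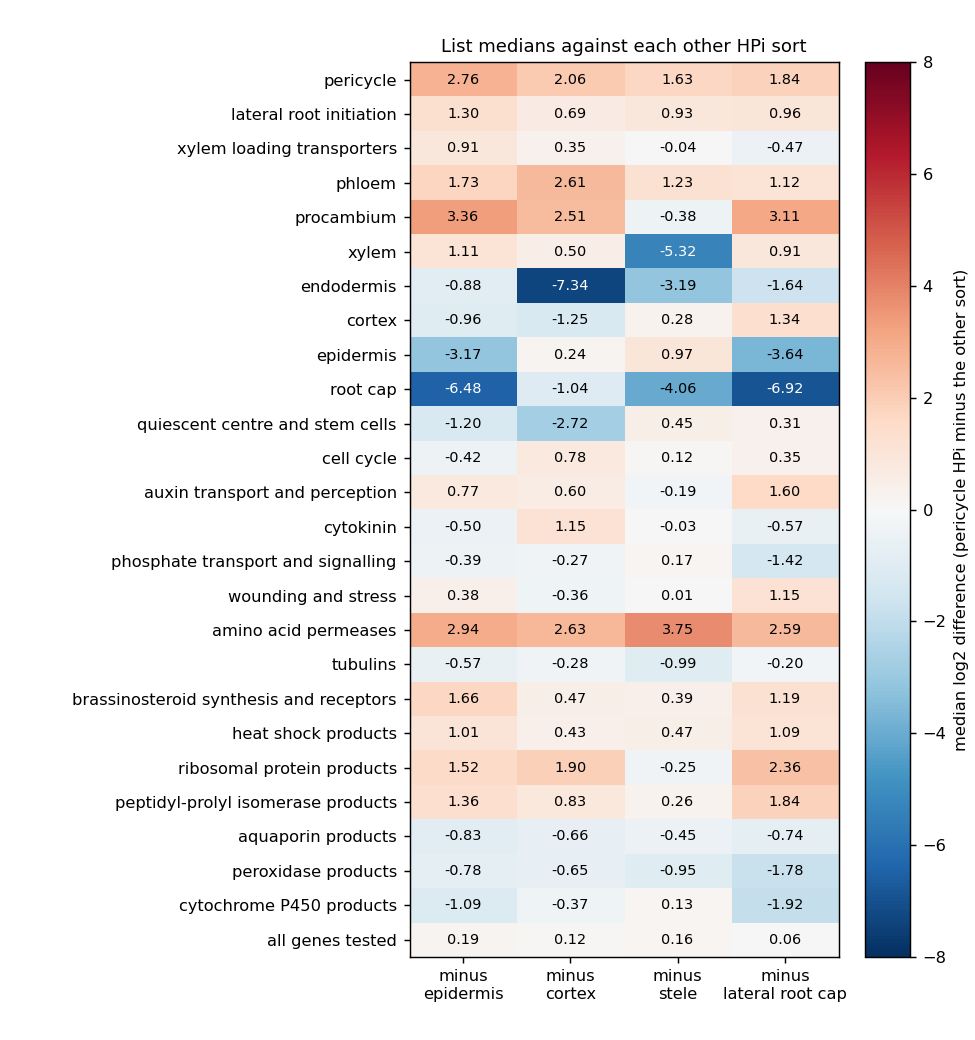
Median log2 difference of each list, pericycle HPi minus each other HPi sort, 1 column per sort, from blue (lower in the pericycle) to red (higher). The bottom row gives the median over all genes, which lies between 0.06 and 0.19. The deepest blue cells are endodermis against the cortex sort (-7.34), root cap against the lateral root cap (-6.92) and epidermis (-6.48), and xylem against the stele (-5.32).

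Markers of the neighbouring endodermis were low and set the pericycle off from the sort labelled cortex. Of 19 genes, 11 were lower than the cortex sort, against 5.13% of all genes, with a median of -7.34. Against the mean of the 4 sorts 6 were lower and 3 higher (31.6% and 15.8%, against 7.17% and 13.2% of all genes), with a median of -3.28. CASP1, a scaffold gene of the Casparian strip, held 8.18, 6.78 and 2.59 CPM in the pericycle, against 2554 to 6979.6 CPM in the cortex sort and 9.06 to 852 CPM in the stele. SCR, which specifies the endodermis, held 0, 0.878 and 0.4605 CPM in the pericycle, against 71.8 to 113 CPM in the cortex sort. The endodermis list came to 91.9 to 112 CPM in the pericycle, against 6586 to 15818 CPM in the cortex sort. The 3 cortex genes tested summed to 2.49 to 9.54 CPM in the pericycle and 29.9 to 45.7 CPM in the cortex sort. The sum was no more than 13.8 CPM in any other HPi library. JKD made up most of the cortex sum, at 42.8, 23.6 and 39.7 CPM. C/VIF2 and AT1G09750 had their highest values in epidermis libraries (7.65 and 6.48 CPM), against at most 2.03 and 4.97 CPM in the cortex sort. Over the mean of the 4 sorts the endodermis calls were few after removal of a library: 3 in all without pericycle replicate 1, 5 without replicate 2 and 2 without replicate 3, and the calls of CASP1 and CASP2 were each lost without replicate 3 (log2 differences -4.85 and -5.1). The 3 members called higher were NUC (3.26), MGP (2.78) and ESB1 (3.3). MGP and NUC encode zinc finger proteins of the SHR pathway, and NUC stood at 27.5, 46.6 and 44.6 CPM in the pericycle libraries, against 0.113 to 22.9 CPM (median 4.58) in the other 12. ESB1, of the Casparian strip, was at no more than 0.547 CPM in any pericycle library, against at most 0.227 CPM in the other 12. It had no read in the lateral root cap HPi libraries, so its fitted difference depends on the prior count.

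Among markers of the outer tissues, the 9 root cap genes gave 6 lower calls (66.7%, against 7.17% of all genes) and no higher one, with a median of -4.42. They came to 14.03 to 38.2 CPM in the pericycle, against 2171 to 5513 CPM in the lateral root cap, 2950.1 to 3273 CPM in the epidermis, 602 to 823 CPM in the stele and 45.3 to 82.3 CPM in the cortex sort, against which no member was called (median -1.04). SMB, a master regulator of cap cells, held 0, 0.818 and 0.142 CPM in the pericycle. Of the 12 epidermis genes 1, EXPA18, was called lower over the mean of the 4 sorts (8.33%, against 7.17% of all genes). That call was lost without any pericycle library (-2.7, -2.96 and -2.45 without replicates 1, 2 and 3). Lower than the epidermis sort were 6, against 11.5% of all genes, and lower than the lateral root cap 7, against 10.3%. Summed, they came to 44.6 to 60.3 CPM in the pericycle, against 203 to 530.0 CPM in the epidermis, 313 to 487 CPM in the lateral root cap, 24.2 to 44.4 CPM in the cortex sort and 41.8 to 46.02 CPM in the stele. The medians against the cortex sort (0.24) and the stele (0.97) were positive. Called higher than the cortex sort was 1 member, than the stele 1 and than the lateral root cap 1. The shares over all genes were 4.13%, 1.78% and 15.9%. WER, which specifies non-hair cells, held 0, 0.1704 and 0.0354 CPM in the pericycle and COBL9, of root hairs, 0, 0.622 and 0.3896 CPM. The 5 genes of the quiescent centre and stem cells gave no call and came to 1.18 to 4.57 CPM in the pericycle, against 3.204 to 30.2 CPM in the other 12.

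The 12 genes with the largest negative differences included genes of programmed cell death, known from dying cap and xylem cells, and genes of wall polymers. RNS3, a ribonuclease gene, stood at 0.4595, 3.08 and 6.38 CPM in the pericycle libraries, against 8.51 to 2555 CPM (median 511) in the other 12 (log2 difference -6.03, SE 1.0, adjusted p = 0.000175). BFN1, a nuclease gene of dying cells, stood at 0.0656, 3.95 and 5.14 CPM in the pericycle libraries, against 8.51 to 1543 CPM (median 306) in the other 12 (log2 difference -5.85, SE 1.12, adjusted p = 0.000746). MC9, a metacaspase gene, stood at 2.71, 11.3 and 23.3 CPM in the pericycle libraries, against 27.2 to 6465 CPM (median 1304) in the other 12 (log2 difference -5.68, SE 1.03, adjusted p = 0.000481). All pericycle libraries lay below all others for these genes, as the naming rule required, although the cortex sort, the lowest of the rest, reached down to 8.51 CPM for RNS3. PASPA3 (-4.42), SCPL48 (-3.23) and DMP4 (-4.7), of the root cap list, were also lower. FRA8, a glycosyltransferase gene of xylan synthesis, stood at 0, 0.375 and 0.531 CPM in the pericycle libraries, against 2.75 to 75.9 CPM (median 25.9) in the other 12 (log2 difference -6.09, SE 0.94, adjusted p = 4.5e-05). GXMT1 (-4.56) and F8H (-5.27), which act on the same polymer, were also lower than every other sort, and these were picked out after their values had been seen. UGT72E3, which glycosylates lignin precursors, had 2 reads in the 3 pericycle libraries together, a ratio to the pooled other libraries of 0.00130 (95% interval 0.000158 to 0.00471, counting error only). That ratio rests mainly on the cortex sort, which held 1779 of its reads, against 137 in the epidermis, 77 in the stele and 8 in the lateral root cap.

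Some others of the 12 were highest in the cortex sort. AT1G30750 held 0.4595, 0.554 and 0.283 CPM in the pericycle, against 594 to 1718 CPM in the cortex sort and 1.09 to 12.9 CPM in the epidermis. AT2G39360, a protein kinase gene, held 0, 0.204 and 0.106 CPM in the pericycle, against 55.5 to 109 CPM in the cortex sort, and was lower than each sort. AT5G43450, an oxygenase gene, was different in that it was present at like levels in all 4 other sorts, 0, 0.0596 and 0.0708 CPM in the pericycle libraries, against 0.993 to 11.5 CPM (median 6.69) in the other 12. It was lower by -7.11 (SE 1.25, adjusted p = 0.000175). AT3G32030 (-6.64), AT5G15180 (-5.86), PAP22 (-5.77) and AT3G45710 (-5.56) made up the rest.

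Tubulin genes, the building blocks of microtubules, were grouped after several appeared among the 117 genes lower than every sort. Of 15, 5 were lower and 1 higher (33.3% and 6.67%, against 7.17% and 13.2% of all genes). TUB1 stood at 3.24, 3.95 and 6.94 CPM in the pericycle libraries, against 12.3 to 299 CPM (median 177) in the other 12, and TUB5 at 15.5, 11.997 and 9.99 CPM in the pericycle libraries, against 31.9 to 148 CPM (median 87.3) in the other 12. Both lay below all other libraries, with differences of -4.6 and -2.63. TUA2 (-1.29), TUA3 (-1.07) and TUA4 (-2.03) were lower too, and as near-identical copies TUA2 with TUA4 and TUA3 with TUA5 may have exchanged reads. TUA1 went the other way, at 58.9, 98.5 and 95.03 CPM in the pericycle libraries, against 1.83 to 90.9 CPM (median 3.89) in the other 12 (log2 difference 3.32, SE 0.32, adjusted p = 4.27e-08), overlapping the stele (55.8 to 90.9 CPM).

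Of 13 genes for auxin transport and perception, 4 were higher and 1 lower than the mean of the sorts (30.8% and 7.69%, against 13.2% and 7.17% of all genes). None was called in either direction against the stele, where 1.78% of all genes were higher and 2.62% lower. PIN3, an auxin exporter gene, stood at 97.5, 122 and 136 CPM in the pericycle libraries, against 0.0478 to 73.97 CPM (median 11.7) in the other 12 (log2 difference 3.9, SE 0.46, adjusted p = 1.43e-06). PIN7 was higher by 4.52 and the importer gene LAX3, which acts in tissue over new primordia, by 2.95. PIN7 overlapped the stele (13.4 to 26.6 CPM), and LAX3 stood at 130.5, 92.5 and 108 CPM in the pericycle, below the 179 to 346 CPM of the stele. The importer gene AUX1 was called (1.27), a call lost with RLE scaling (1.01) and without any 1 of 8 libraries, epidermis replicates 1 or 3, cortex replicates 1 or 3, pericycle replicates 2 or 3 and lateral root cap replicates 1 or 2 (1.03 to 1.28). PIN2, the exporter gene of outer tissues, held 4.49, 4.25 and 1.59 CPM in the pericycle, against 111 to 260.2 CPM in the epidermis, and missed the threshold over the mean of the 4 sorts (-3.26, adjusted p = 0.0726). AFB1, an auxin receptor gene, was the member called lower. It stood at 13.4, 7.16 and 7.97 CPM in the pericycle libraries, against 8.74 to 108 CPM (median 54.2) in the other 12 (log2 difference -2.35, SE 0.56, adjusted p = 0.00359). The receptor gene TIR1 stood at 66.5, 74.5 and 67.4 CPM in the pericycle libraries, against 42.05 to 100.5 CPM (median 69.9) in the other 12, with a difference of -0.07 (SE 0.28).

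PID, a kinase gene that directs PIN proteins, and WRKY23, an auxin-responsive factor gene, were among the genes higher than every sort and were chosen after their values had been seen. PID stood at 30.4, 28.4 and 33.9 CPM in the pericycle libraries, against 0.672 to 7.5 CPM (median 3.93) in the other 12, and WRKY23 at 168, 171 and 159 CPM in the pericycle libraries, against 6.78 to 40.3 CPM (median 22.8) in the other 12. No library of another sort reached the pericycle range of either gene, and the differences were 3.04 and 2.95.

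Cell cycle genes were near the background. Of 33, 4 were higher (12.1%, against 13.2% of all genes) and none lower, and the median was 0.32, or -0.01 with RLE scaling. The 4 calls were CDKA;1, the main cyclin-dependent kinase gene, at 45.3, 55.6 and 55.3 CPM in the pericycle libraries, against 7.44 to 44.9 CPM (median 18.997) in the other 12 (log2 difference 1.3, SE 0.29, adjusted p = 0.00191), and the D-type cyclin genes CYCD3;3 (2.42), CYCD2;1 (1.14) and CYCD3;2 (1.4), which act at entry into division. Without pericycle replicate 2 the calls of CYCD2;1 (1.0) and CYCD3;2 (1.22) were lost. Genes of mitosis were low: CYCB1;1 held 1.07, 1.44 and 0.673 CPM in the pericycle, against 0.1403 to 3.83 CPM in the other 12, and KNOLLE, of cell plate formation, held 1.51, 1.397 and 1.63 CPM, against 0 to 4.61 CPM. Cytokinin genes were also near the background, with 3 higher calls of 23, a share close to the 13.2% of all genes, and none lower. Their median was 0.25, against 0.18 over all genes. The calls were LOG3 and LOG4, both named above with the procambium genes, and ABCG14. ABCG14, a cytokinin exporter gene, was higher by 2.97 and was not called without pericycle replicate 3 (2.6).

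Of 26 phosphate genes, 3 were higher and 3 lower (11.5% each, against 13.2% higher and 7.17% lower over all genes), with a median of -0.56, and PHO1 was one of the higher. LPR2, a ferroxidase gene of the root response to low phosphate, stood at 136, 137 and 145 CPM in the pericycle libraries, against 0.227 to 53.04 CPM (median 3.44) in the other 12 (log2 difference 4.58, SE 0.64, adjusted p = 2.37e-05). PHO2, whose product removes PHO1 protein and phosphate importers, stood at 21.4, 30.1 and 34.5 CPM in the pericycle libraries, against 0.8599 to 11.3 CPM (median 4.39) in the other 12 (log2 difference 2.55, SE 0.52, adjusted p = 0.00087). Both lay above all other libraries. The non-coding RNA gene AT4, induced by phosphate starvation, stood at 21.1, 49.97 and 46.4 CPM in the pericycle libraries, against 69.8 to 198 CPM (median 144) in the other 12 and was lower than every sort (log2 difference -1.83, SE 0.3, adjusted p = 7.66e-05). The importer gene PHT1;4 was lower by -2.94, and PHF1, needed for importers to leave the endoplasmic reticulum, by -1.07, a call lost without pericycle replicate 1 (-0.87) or replicate 3 (-1.08). The regulator gene PHR1 stood at 70.3, 79.9 and 88.9 CPM in the pericycle libraries, against 51.4 to 121 CPM (median 79.9) in the other 12, with a difference of -0.05 (SE 0.23).

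Of 111 genes with a product named for heat shock, grouped after the values had been seen, 101 passed the filter. Of these 36 were higher and 3 lower (35.6% and 2.97%, against 13.2% and 7.17% of all genes), with a median of 0.7. Higher than every sort were 8 of them, against 0.217% of all genes. RLE scaling gave 35 higher and 6 lower. HSFA2, a heat-inducible regulator gene, stood at 389, 631 and 453 CPM in the pericycle libraries, against 14.5 to 203 CPM (median 56.9) in the other 12 (log2 difference 3.25, SE 0.5, adjusted p = 6.76e-05). The chaperone gene HSP90.1 stood at 1680.5, 2664 and 2063 CPM in the pericycle libraries, against 99.8 to 697 CPM (median 177) in the other 12, and HSP70 at 3371, 5515 and 4042 CPM in the pericycle libraries, against 192 to 1237 CPM (median 612) in the other 12. Every pericycle library lay above every other for these genes, with differences of 3.26 and 2.78 for the chaperones. HSP70 and HSP90 genes have close relatives with which reads may be shared. HSP101, needed to dissolve aggregates, stood at 1694, 2522 and 1644 CPM in the pericycle libraries, against 64.8 to 1631 CPM (median 289) in the other 12, the lowest pericycle library being barely above the highest epidermis one (302 to 1631 CPM). The summed list came to 24706, 36139 and 27588 CPM in pericycle replicates 1, 2 and 3, above the 4057 to 15480.3 CPM of the other 12. CPN60A, a chaperonin gene picked after its value had been seen, stood at 227, 348 and 254 CPM in the pericycle libraries, against 3.77 to 107 CPM (median 31.7) in the other 12. Of 36 peptidyl-prolyl isomerase genes, which also act in protein folding, 17 were higher (47.2%, against 13.2% of all genes) and none lower. That count moved to 9 higher and 1 lower with RLE scaling, to 9 higher and 2 lower with DESeq2, to 4 higher without pericycle replicate 2 and 8 without replicate 3, and to 10 or 11 without epidermis replicates 1, 2 or 3, cortex replicates 1 or 3 or lateral root cap replicate 2. At LPi 7 were higher and 1 lower, where 13.9% of all genes were higher and 7.91% lower. Of 11 wounding and stress genes the 3 called, all higher (27.3%, against 13.2% of all genes), were HSFA2, HSP90.1 and HSP101. JAZ10, a jasmonate response gene, stood at 384, 396 and 395 CPM in the pericycle libraries, against 195 to 805 CPM (median 382) in the other 12, and WRKY40 at 273, 309 and 305 CPM in the pericycle libraries, against 109 to 575 CPM (median 292) in the other 12, with overlapping groups.

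Ribosomal protein genes were shared with the stele. Of 411 with such a product, 388 were tested, and 174 were higher and 1 lower than the mean of the 4 sorts, with a median of 1.4. These were 44.8% and 0.258%, against 13.2% and 7.17% of all genes. Against the stele none was higher, 1 was lower, and the median was -0.25, where 1.78% of all genes were higher and 2.62% lower. Summed levels were 23312 to 30517 CPM in the pericycle and 28950.0 to 40029 CPM in the stele, against 5855 to 13419 CPM in the epidermis, 4553 to 13143 CPM in the cortex and 5582 to 6725 CPM in the lateral root cap. The count moved with the scaling and with single libraries, to 95 higher with RLE and to 110, 69 and 79 higher without epidermis replicate 3, pericycle replicate 2 and pericycle replicate 3. Ribosomal protein genes have close copies, between which the counting may have split reads or dropped them.

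**Figure D4:**
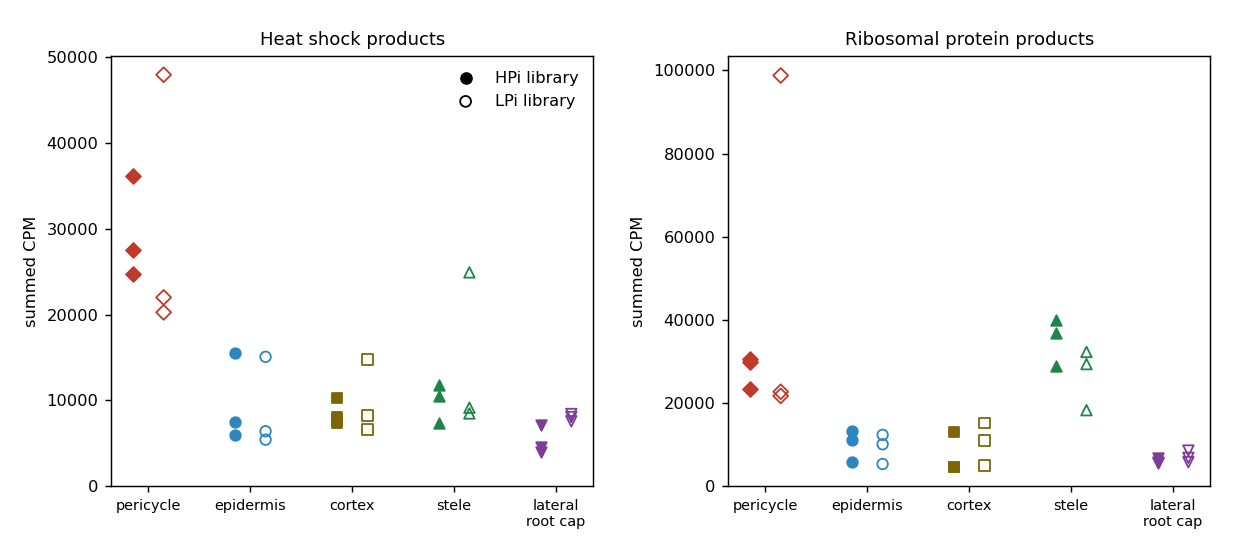
Summed CPM of the heat shock genes (left) and ribosomal protein genes (right) in each library, by sort, with filled symbols for HPi and open symbols for LPi and linear axes from 0. In the left panel the 3 pericycle HPi libraries (24706 to 36139 CPM) lie above the other 12 HPi libraries; in the right panel they lie near the stele (28950.0 to 40029 CPM), and 1 pericycle LPi library stands at 98755 CPM.

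The same comparison was made at LPi, where 3462 genes (13.9%) were higher and 1966 (7.91%) lower in the pericycle. Pericycle LPi replicate 3 had 1863306 reads and, without it, 1972 genes were higher. Of the genes higher at HPi, 1746 were also higher at LPi, which is 53.3% of the HPi set and 50.4% of the LPi set, and none was lower. Of those lower at HPi, 1140 were also lower at LPi, 63.9% of the HPi set and 58.0% of the LPi set, and 2 were higher. Heat shock genes at LPi again gave 38 higher calls and 3 lower, and their sum was 20271 to 47954 CPM in the pericycle LPi libraries, against 5441 to 24928 CPM in the other LPi libraries, with overlap. The highest value was that of pericycle LPi replicate 3, and the other two pericycle LPi libraries (20271 and 22010.0 CPM) lay below stele LPi replicate 3 (24928 CPM). GATA23 was higher at LPi by 5.31 and LBD16 by 3.98. AT4, lower than every sort at HPi, differed by -0.41 at LPi and was not called. The change of the pericycle difference between HPi and LPi, tested as an interaction in edgeR, gave 0 genes at an adjusted p under 0.05 and 2690 at an unadjusted p under 0.05. Among the 100 named genes the smallest adjusted p was 0.172.

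**Figure D5:**
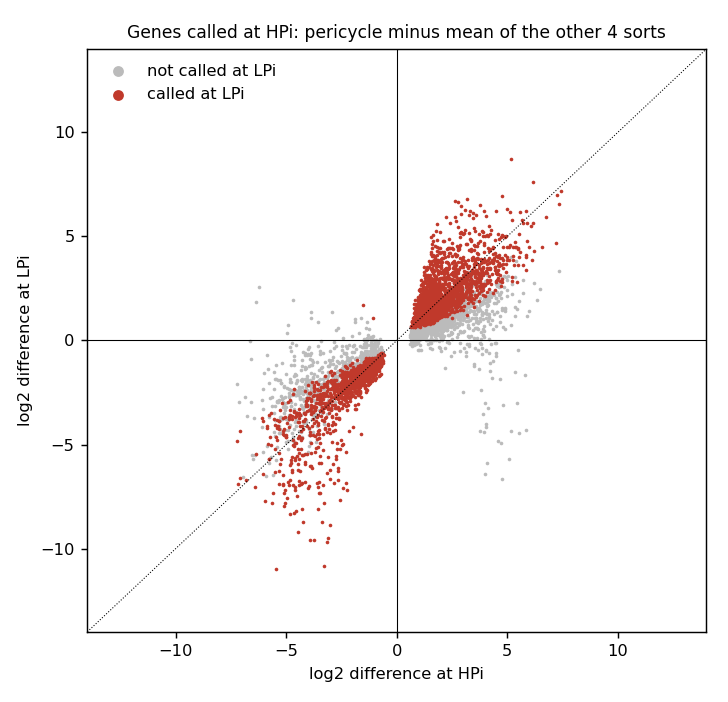
Log2 difference at LPi (vertical axis) against that at HPi (horizontal axis), pericycle minus the mean of the other 4 sorts, for the 5061 genes called at HPi, in red where also called at LPi and grey where not, with the dotted line marking equal differences. Most points lie in the lower left and upper right quadrants, and 2 red points lie in the upper left.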

How the data were processed

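RNA-seq was deposited for 30 libraries as 1 table of whole-number read counts per gene, which the authors made from FACS-sorted root cells with SMART-Seq v4 and ThruPLEX kits. Per the labels, CASAVA 1.4, FastQC 0.11.9, MultiQC 1.7, STAR 2.5.3a, HTSeq 1.99.2 and DESeq2 were used. Neither a genome build nor an annotation or strand mode is given in the sources used here. The 5 summary rows of HTSeq were left out of the 32833 genes. They held 4.99 to 12.5% of the reads of a library.

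Libraries were grouped by their labels, and the members and gene lists were chosen with earlier results of these data known. In R 4.3.3, edgeR 4.0.16 (filterByExpr, TMM, a model of the 10 groups over all 30 libraries, quasi-likelihood test with Benjamini-Hochberg adjustment) tested 24866 genes. The named genes were GATA23 and PHO1, the 15 higher and 12 lower calls with the largest difference (mean log2 CPM of 2 or more, no overlap), the 8 furthest above every sort, and up to 5 members per list with the smallest p. Genes named beyond these illustrate a list or were picked singly. Those picked singly and those of the added groups were chosen after their values were seen. Symbols and products came from RefSeq TAIR10.1 by gene ID (32548 of 32833 matched). The alternatives were RLE scaling, other filters, DESeq2 1.42.0, limma 3.58.1 voom, a replicate block, 1 phosphate level only, a minimum log2 difference of 1, no organelle genes and omitted libraries. The procedure was tested on simulated data. Depth ran from 427064 to 122076663 reads in genes. For a group without a read, 3 reads over all its libraries together were taken as the floor.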

Additional observations from a re-analysis of the deposited data

How the results depend on the processing

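The number of genes called at HPi (5061) was 12044 with limma voom and 1600 with a minimum log2 difference of 1, and ranged from 2873 to 5260 when each library was left out. The number at LPi (5428) was 2448 with that minimum and 4056 to 5461 with each library left out. Genes higher than every sort (54) numbered 105 with DESeq2, 959 with voom, 106 with 1 phosphate level only, 11 with the minimum difference and 14 to 54 with each library left out (14 without stele replicate 2, 18 without pericycle replicate 2). Genes lower than every sort (117) numbered 180 with RLE scaling, 212 with at least 5 CPM in 3 libraries, 315 with DESeq2, 358 with voom, 203 with 1 phosphate level only, 28 with the minimum difference and 60 to 131 with each library left out (60 without pericycle replicate 1 or 3, 75 without replicate 2). The minimum difference is a stricter question by construction, and the cause of the other changes was not tested. Of the differences of named genes, the uncalled ones of PLT2 (0.47; -0.67 with DESeq2, -1.3 with voom, and -3.41 to 1.05 with each library left out, the lowest without pericycle replicate 3) and AT1G09750 (-0.34; 0.67 with voom, 0.10 without stele replicate 1, and -0.63 to 1.1 with each library left out, the highest without lateral root cap replicate 3) changed sign. Over the other settings 1036 gene results kept their side of the threshold, 17 lost it and 40 gained it, and with single libraries left out 1464 kept it, 27 lost it and 6 gained it. Whether replicate numbers pair the libraries was not settled. Deviations of same-numbered libraries correlated weakly, at -0.057 to 0.082, none over 0.1. Every library correlated best with its own number in the cortex, the lateral root cap and pericycle LPi (3 of 3 each), but 1 of 3 did in the epidermis and the stele. With the replicate block 5086 genes were called at HPi, 5193 at LPi, 64 were higher and 120 lower than every sort, and lateral root initiation had 11 calls in place of 7. Low depth in stele HPi replicate 1 limits what could be detected for genes of low level.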

Other observations

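Further gene families were grouped by product name after the values had been seen, and had more lower than higher calls in the pericycle sort at HPi. Over all genes 7.17% were lower and 13.2% higher. Of 65 peroxidase genes tested, which act on cell walls, 14 were lower (21.5%), 4 higher (6.15%) and 47 not called. Their median log2 difference was -1.3, against 0.18 over all genes. They came to 611 to 734 CPM in the pericycle libraries, against 1182 to 24645 CPM in the other 12, without overlap. Leaving out pericycle replicate 1, 2 or 3 left 5, 5 and 6 lower calls. Of 35 aquaporin genes, which carry water, 9 were lower (25.7%), 4 higher (11.4%) and 22 not called, with sums of 15511 to 22552 CPM in the pericycle, against 16279 to 31383 CPM in the other 12, which overlapped. PIP1;5 (-4.84) and PIP2;4 (-3.82) were lower than every sort. Of 226 cytochrome P450 genes, 31 were lower (13.7%), 16 higher (7.08%) and 179 not called, with sums of 3638 to 4322 CPM in the pericycle and 3183 to 3595 CPM in the stele, against 10477 to 15001 CPM in the epidermis. Against the stele 5 were higher and 3 lower, with a median of 0.13, where 1.78% of all genes were higher and 2.62% lower. The lower calls fell to 18, 17 and 15 without pericycle replicates 1, 2 and 3.

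FLA9, which encodes a fasciclin-like arabinogalactan protein, held 17.97, 13.7 and 18.7 CPM in the pericycle libraries, against 79.3 to 848 CPM (median 259) in the other 12, and ETR2, an ethylene receptor gene, held 66.7, 143 and 115 CPM in the pericycle libraries, against 1.47 to 31.8 CPM (median 7.56) in the other 12. Both genes were picked out after their values had been seen. Neither overlapped another sort, with differences of -3.74 and 3.36.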
